A study of Mus musculus with 16 samples.

Results

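Type I interferon response genes are the genes that cells switch on when interferon alpha or beta reaches them. They were followed here as a list of 33 named genes in CD8 T cells of leukaemia-bearing mice. A gene entered when a probe set of the array was annotated with its symbol and no other, and of several such probe sets the brightest on average over the 16 arrays stood for the gene. Of the 33 genes, 30 were measured, out of 22180 genes tested. Oas1a and Ifi27l2a lie on probe sets shared with a paralog, and Ifi44 was not in the probe table, so these 3 were left out.

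The samples were CD8 T cells from the spleen of female mice of the strain labelled C56BL/6. The mice were chimeras that had received wild-type (WT) bone marrow or bone marrow with an Il4i1 knockout (KO). All of them, WT controls included, were then transplanted with chronic lymphocytic leukaemia cells from Eµ-TCL1 mice, in which the TCL1 oncogene is driven in B cells. At 5 weeks after the transplantation 2 subsets were sorted. Effector cells were CD44 positive and CD127 negative, and memory cells were high for CD44 and CD127. Each subset from each bone marrow has 4 arrays, so that 4 groups of 4 were compared. The sources used here do not give the ages of the mice or the number of T cells that the hosts kept. They also leave unsaid whether each sample is a mouse of its own, and a p-value then measures the spread between these samples, which may be technical. Il4i1 encodes a secreted enzyme that breaks down aromatic amino acids.

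Type I interferon binds a receptor of the chains IFNAR1 and IFNAR2, whose kinases JAK1 and TYK2 phosphorylate STAT2. STAT2 acts with IRF9 in the complex ISGF3, which binds the interferon-stimulated response element (ISRE) in promoters. The induced genes block virus replication, sense foreign nucleic acid, raise the response further through IRF7 or end it through USP18. In CD8 T cells this response accompanies activation and infection, and resting T cells keep a low level of it.

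Values are log2 expression as deposited, so a difference of 1 is a 2-fold change. Levels are compared between groups for the same gene and never between genes, since probe sets differ in how bright they are. Differences are KO minus WT or effector minus memory, given with their standard error (SE) from a limma fit over all 16 arrays. A gene passed at a Benjamini-Hochberg adjusted p under 0.05 over all 22180 genes. No detection calls came with the values, so a gene is called dim where it lay under the median of the array. Of the 30 genes, 24 lay above the array median on all 16 arrays. Ifi204 lay above it on none, Mx2 on 3, Mx1 and Trim30c on 8, Slfn5 on 11 and Oas2 on 15.

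The 16 array medians lay between 4.1169 and 4.2214. The T cell genes Cd3d, Cd3e, Cd8a and Cd8b1 lay above the array median on all 16 arrays. Array effector KO 4 stood apart: its highest correlation over genes with any other array was 0.974, while each of the others reached 0.989 or more. Several knockout differences in effector cells that it moved are also given without it. Scan dates, slides and other batches are not analysed here. The samples are bulk RNA, so fewer expressing cells and less RNA per cell cannot be told apart in any of the values below.

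Promoter sequences of 23 of the 33 genes were in the RefSeq promoter table (build GRCm38.p6), which gives 250 bases before to 50 bases after a gene's start. The ISRE core, GAAA, any 2 bases and GAAA again, was searched on both strands. It occurred in the promoters of 12 of these 23 genes (52.2%), and in those of 3.87% of the tested genes with a promoter in the table. The gamma-activated site TTCNNNGAA, an element of the interferon gamma response, occurred in 6 of the 23 (26.1%) and in 9.15% of the tested genes. The 23 include genes that were not measured. Among the 21 measured ones, 11 held the ISRE core (52.4%) and 5 the gamma-activated site (23.8%). In the Bst2 promoter an ISRE core overlaps a gamma-activated site. A match is a description of the letters in this window and shows neither binding nor use.

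The promoters of Isg15 and Bst2 are shown whole because both hold overlapping cores, and because Isg15 was among the 4 genes with the smallest p in the knockout comparison and Bst2 among those in the subset comparison. Isg15 lies on the minus strand, with its promoter at chr4:156200769-156201068, and holds 3 overlapping cores from -78 to -57, counted from the start. Bst2 lies on the minus strand as well, with its promoter at chr8:71537423-71537722, and holds 2 overlapping cores from -130 to -115. Both sequences run 5′ to 3′ on the strand of the gene, with the ISRE cores in capitals.
Isg15: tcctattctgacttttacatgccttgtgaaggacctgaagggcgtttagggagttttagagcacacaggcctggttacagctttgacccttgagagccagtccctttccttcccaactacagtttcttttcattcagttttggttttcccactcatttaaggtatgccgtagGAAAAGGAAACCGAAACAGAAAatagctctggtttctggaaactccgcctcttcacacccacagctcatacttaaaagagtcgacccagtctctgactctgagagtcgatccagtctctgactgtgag
Bst2: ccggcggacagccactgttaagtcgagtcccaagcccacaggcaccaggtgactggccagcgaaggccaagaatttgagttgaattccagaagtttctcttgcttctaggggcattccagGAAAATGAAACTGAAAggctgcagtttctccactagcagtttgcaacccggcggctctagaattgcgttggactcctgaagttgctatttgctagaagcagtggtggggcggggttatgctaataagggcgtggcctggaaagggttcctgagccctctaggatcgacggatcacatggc

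For 7 more genes the core is shown with 12 bases on each side, 5′ to 3′ on the strand that carries it, with the core in capitals. Stat2 (chr10:128270264-128270297) has it on the minus strand, beginning at -222 from the start. The window of Ifit1 (chr19:34640792-34640825) is on the minus strand, that of Oas3 (chr5:120777713-120777746) on the minus strand and that of Rsad2 (chr12:26456551-26456584) on the plus strand. Ddx60 (chr8:61928022-61928055) and Slfn5 (chr11:82951935-82951968) have it on the plus strand and Phf11b (chr14:59341359-59341392) on the minus strand. These genes are shown because all but Stat2 are among those that passed in the subset comparison or came nearest to passing in the knockout comparison, and Stat2 is part of the factor that binds the element.
Stat2: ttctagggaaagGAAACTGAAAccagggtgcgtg
Ifit1: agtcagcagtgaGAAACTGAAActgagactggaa
Oas3: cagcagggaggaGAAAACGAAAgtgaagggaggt
Rsad2: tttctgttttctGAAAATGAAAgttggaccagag
Ddx60: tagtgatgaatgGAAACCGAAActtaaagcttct
Slfn5: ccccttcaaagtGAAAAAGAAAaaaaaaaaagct
Phf11b: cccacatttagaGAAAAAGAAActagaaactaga

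Of the genes that passed in the subset comparison below, 11 had a promoter in the table and 6 of these held the core (54.5%). Of the other measured genes, 10 had a promoter and 5 held it (50%).

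The comparison of effector with memory cells asks how far the sorted subsets differ in this response, whatever the bone marrow. Of the 30 genes, 15 passed as lower in effector cells over both genotypes and 0 passed as higher, while by sign alone 23 were lower and 7 higher. Over all genes tested, 7.11% passed as lower and 5.05% as higher. The median difference of the 30 genes was -0.46, against 0.01 over all genes, and single genes ranged from -2.81 (Trim30c) to 0.24 (Isg20). Within WT, 8 of 30 passed as lower (2.3% of all genes) and 0 as higher (0.92%). Within KO, 10 of 30 passed as lower (4.3% of all genes) and 0 as higher (3.14%). Usp18, Oas3, Oasl2, Cmpk2, Bst2, Rtp4, Trim30c and Slfn5 passed as lower in each genotype. That is 8 of 30 genes, against 1.56% of all genes. Over the 16 fits that left out 1 array, the call of Rtp4 in WT was lost in 5 (effector WT 1 or 2, or memory WT 1, 3 or 4 left out). Of the calls in KO, Oas2 was lost in 13 of these fits and Ifi204 in 8. Effector arrays lay below all memory arrays without overlap for 9 of 30 genes in WT (6.8% of all genes) and 11 of 30 in KO (6.1%).

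**Figure D1:**
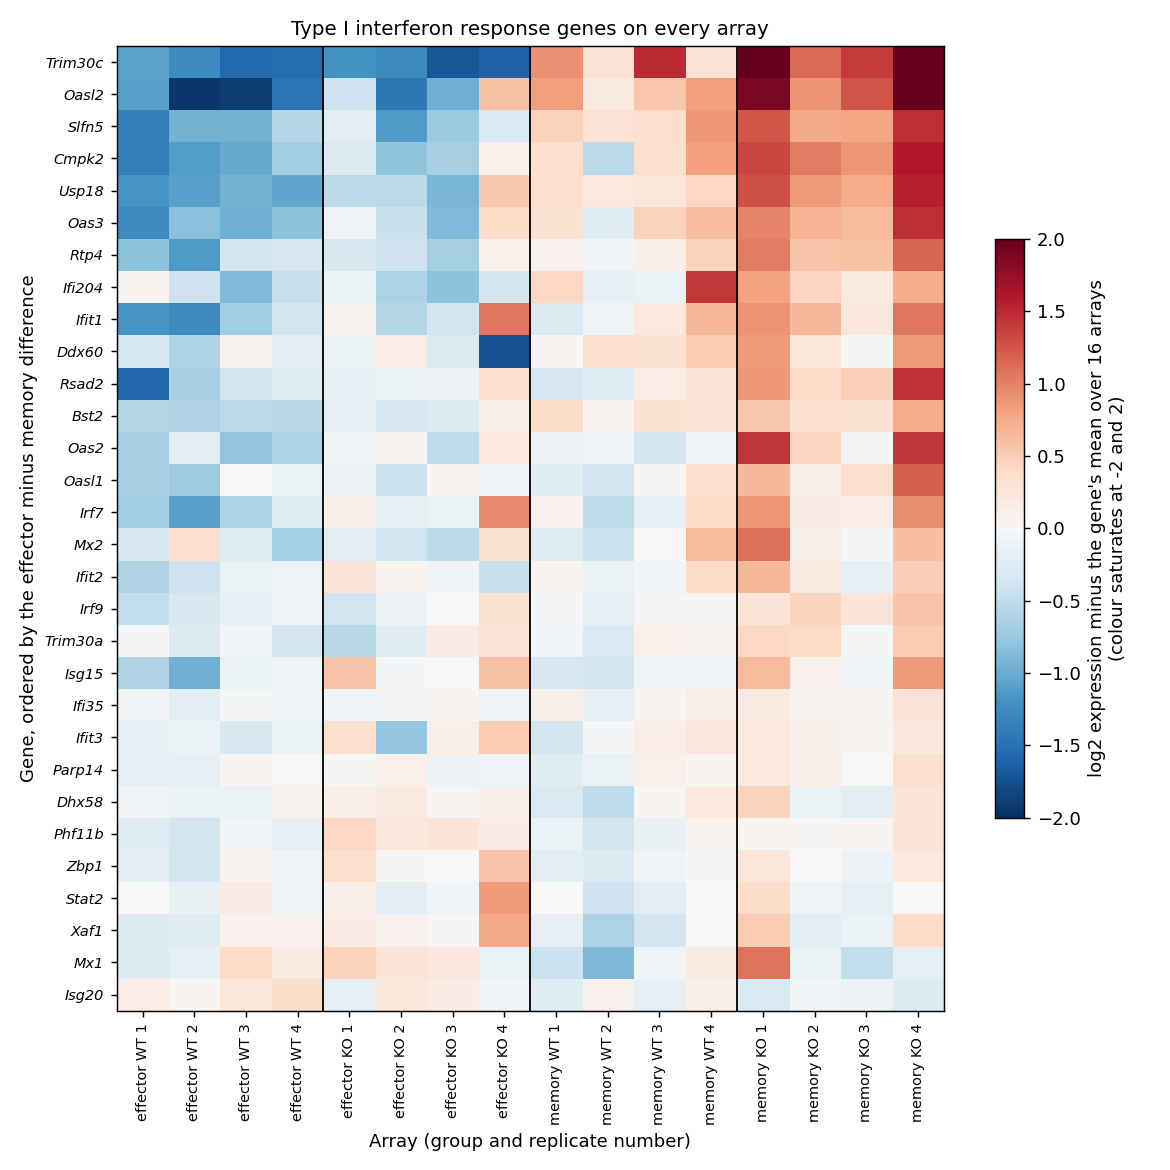
Colour gives log2 expression minus the gene's mean over 16 arrays for the 30 genes (rows) on each array (columns, grouped by subset and bone marrow), with rows ordered by the effector minus memory difference. The upper rows, from Trim30c to Rtp4, are mostly blue on effector and mostly red on memory arrays, with effector KO 4 pale red for Oasl2, Usp18 and Oas3, and memory KO 1 and memory KO 4 are the reddest columns.

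Usp18, the protease that removes ISG15 from proteins and blocks signalling at the receptor chain IFNAR2, is the brake of the response. It read 6.17, 6.26, 6.41 and 6.32 on the effector WT arrays and 7.71, 7.57, 7.60 and 7.77 on the memory WT arrays. On the effector KO arrays it read 6.83, 6.83, 6.43 and 7.89, and on the memory KO arrays 8.64, 8.20, 8.10 and 8.90. Effector and memory arrays did not overlap within either genotype. Over both genotypes Usp18 fell by 1.42 (SE 0.17, adjusted p = 3.2e-05) in effector cells, a 2.67-fold change.

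The OAS family makes short adenylate chains that activate the antiviral RNase L, though some of its members lack that activity and act in other ways. Oasl2 read 5.15, 4.28, 4.33 and 4.76 in effector WT and 7.06, 6.42, 6.78 and 7.05 in memory WT. The KO arrays read 5.81, 4.80, 5.27 and 6.82 in effector cells and 8.11, 7.13, 7.49 and 8.43 in memory cells. Each memory array was thus above each effector array of its genotype, by 2.20 (SE 0.36) on average in WT and 2.11 (SE 0.36) in KO. Oas3 was lower in effector cells by 1.25 (SE 0.25, adjusted p = 0.00826) in WT and by 1.21 (SE 0.25, adjusted p = 0.00624) in KO. Oas2 passed over both genotypes at -0.66 (SE 0.19, adjusted p = 0.0291) and Oasl1, which in mice holds down the translation of Irf7, at -0.52 (SE 0.16, adjusted p = 0.0412). Isg20, an RNA exonuclease, had the opposite sign at 0.24 (SE 0.08) and did not pass (adjusted p = 0.0703). It did pass as higher in effector cells in the fits without effector KO 1 or without memory WT 4.

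Cmpk2, a mitochondrial nucleotide kinase, and its genomic neighbour Rsad2, which encodes viperin and makes a chain-terminating nucleotide, were both lower in effector cells. Cmpk2 read 6.28, 6.53, 6.64 and 6.96 in effector WT and 7.98, 7.13, 8.0 and 8.47 in memory WT. In KO it read 7.38, 6.85, 6.99 and 7.76 in effector cells against 8.99, 8.67, 8.53 and 9.26 in memory cells. The subsets did not overlap in either genotype, and the difference over both was -1.46 (SE 0.18, adjusted p = 5.8e-05). Rsad2 stood at -0.75 (SE 0.19, adjusted p = 0.0148).

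Bst2, or tetherin, holds budding virus particles on the cell surface. It read 9.48, 9.45, 9.52 and 9.50 in effector WT, the tightest set of the 30 genes (SD 0.03, n = 4), and 10.41, 10.12, 10.36 and 10.34 in memory WT. The KO arrays read 9.87, 9.71, 9.77 and 10.16 in effector cells and 10.58, 10.37, 10.35 and 10.79 in memory cells. Its fall in effector cells was 1.77-fold in WT (-0.82, SE 0.12, adjusted p = 0.000716) and 1.56-fold in KO (-0.65, SE 0.12, adjusted p = 0.00262). Rtp4, an interferon-induced chaperone of membrane receptors, was 1.99-fold lower over both genotypes (-0.99, SE 0.14, adjusted p = 0.000204).

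Trim30c and Slfn5 had the smallest p-values of the subset comparison over both genotypes, with low signals in effector cells. Trim30c, of a TRIM cluster whose member Trim30a restrains inflammatory signalling, read 3.58, 3.39, 3.09 and 3.10 in effector WT and 3.44, 3.37, 2.93 and 3.02 in effector KO. All 8 values lay under their array medians. It read 5.56, 4.94, 6.13 and 4.94 in memory WT and 7.23, 5.78, 6.04 and 7.76 in memory KO. The difference over both genotypes was -2.81 (SE 0.25, adjusted p = 2.47e-06). Slfn5, of the Schlafen family, read 3.52, 3.94, 3.94 and 4.31 in effector WT, 5.35, 5.17, 5.22 and 5.76 in memory WT, 4.68, 3.76, 4.14 and 4.58 in effector KO and 6.12, 5.65, 5.67 and 6.36 in memory KO. It stood at -1.55 (SE 0.16, adjusted p = 7.15e-06). Slfn5 lay above the array median on 2 effector KO arrays and 1 effector WT array. With effector signals this low and their background unknown, the size of both folds is uncertain. Trim30c shares sequence with its paralogs, and how far its probe set reads those was not tested.

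The other genes that passed over both genotypes were Ifit1, which binds foreign RNA (-0.83, SE 0.22, adjusted p = 0.0203), the helicase Ddx60 (-0.79, SE 0.22, adjusted p = 0.0264), the DNA-binding Ifi204 (-0.92, SE 0.21, adjusted p = 0.00663) and Irf9 (-0.33, SE 0.09, adjusted p = 0.0315). Ifi204 lay under the array median on all 16 arrays. Leaving out 1 array at a time left 11 to 16 genes past the threshold, with 11 without memory KO 4. Without effector KO 1 or memory WT 4 the count includes Isg20, which was higher in effector cells. The calls of Irf9, Oasl1, Oas2 and Ddx60 were lost in 9, 9, 8 and 4 of these 16 fits, and those of the other 11 genes in 0.

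Several well-known genes of the response did not pass in the subset comparison. Isg15 stood at -0.17 (SE 0.16, adjusted p = 0.613), Zbp1, a sensor of Z-form nucleic acid, at 0.08 (SE 0.10, adjusted p = 0.71), and the sensor Dhx58 at 0.05 (SE 0.11, adjusted p = 0.86). Stat2 stood at 0.15 (SE 0.13, adjusted p = 0.57), Phf11b, a PHD finger gene, at 0.05 (SE 0.07, adjusted p = 0.772) and Parp14, an ADP-ribosyl transferase, at -0.10 (SE 0.07, adjusted p = 0.452). Irf7 (-0.48, SE 0.19, adjusted p = 0.124) and Ifit2 (-0.36, SE 0.13, adjusted p = 0.0903) had the sign of the list and did not pass. Xaf1, an antagonist of the apoptosis inhibitor XIAP, was at 0.17 (SE 0.14), Mx1 at 0.23 (SE 0.20), Mx2 at -0.44 (SE 0.20), Ifit3 at -0.15 (SE 0.15), Ifi35 at -0.16 (SE 0.07) and Trim30a at -0.28 (SE 0.12). The plot of the subset difference in each genotype sets these values side by side.

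**Figure D2:**
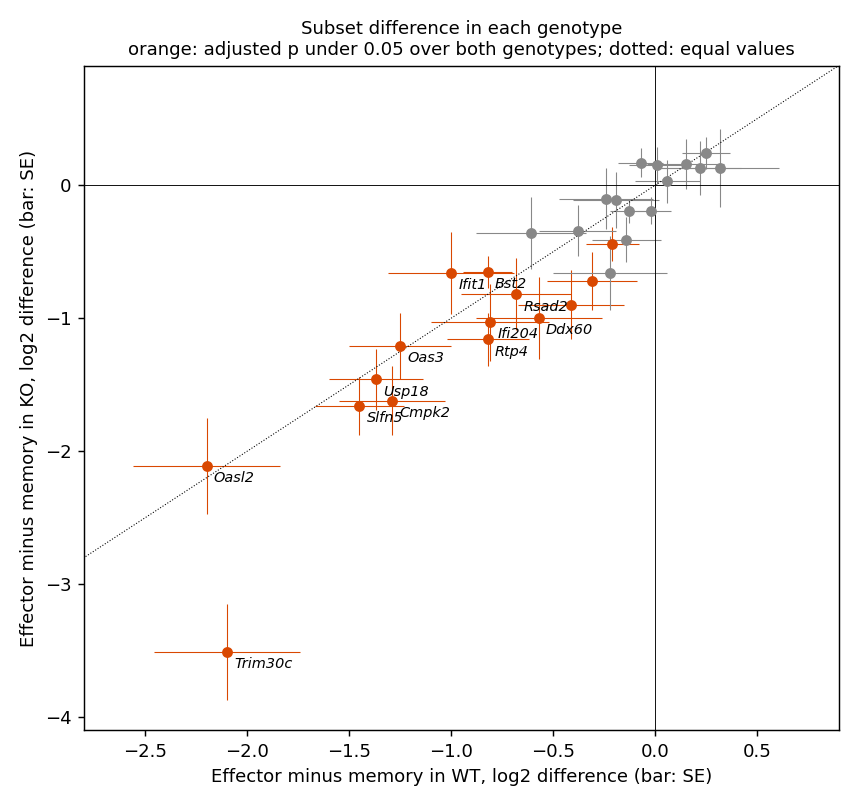
Each point is 1 of the 30 genes, with the effector minus memory difference (log2) in WT on the x axis and in KO on the y axis, bars giving the SE; orange points passed over both genotypes and the dotted line marks equal values. Oasl2 lies near the line at -2.20 and -2.11, while Trim30c lies below it at -2.10 and -3.51.

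The subset difference was itself compared between genotypes through the interaction, which is the same contrast as the knockout difference in effector minus that in memory cells. Of the 30 genes, 0 passed, and over all genes the share was 0%. At an unadjusted p under 0.05 there was 1 of 30, against 5.84% of all genes. That gene was Trim30c, at -1.41 (SE 0.51, adjusted p = 0.841), whose knockout difference was -0.10 (SE 0.36) in effector and 1.31 (SE 0.36) in memory cells. Its memory KO arrays fell into 7.23 and 7.76 on numbers 1 and 4, and 5.78 and 6.04 on numbers 2 and 3. The median interaction of the 30 genes was -0.09, with 11 positive (49.7% of all genes were) and 19 negative. A test that does not pass leaves room for differences of the size of these intervals, such as -0.79 to 0.61, the 95% interval for Usp18.

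The comparison of KO with WT asks whether this response differs when the bone marrow lacks Il4i1, in each subset. In effector cells 26 of 30 genes were higher in KO (53.3% of all genes were), with a median difference of 0.30 against 0.01 over all genes. By the limma fit 0 of 30 passed, against 0.0541% of all genes. In memory cells 29 of 30 were higher (54.8% of all genes), with a median of 0.44 against 0.02, and again 0 of 30 passed, against 0.113%. At an unadjusted p under 0.05, 11 of 30 were higher in effector cells (5% of all genes) and 17 of 30 in memory cells (5.19%), with 0 lower in each (4.32% and 6.08%). Without effector KO 4 the effector values were 24 of 30 higher, a median of 0.24 and 0 of 30 past the threshold, with 9 at an unadjusted p under 0.05. At that cutoff the memory count fell to 7 without memory KO 4, 9 without memory WT 2 and 12 without memory KO 1. It rose to 21 without memory KO 3 or without memory WT 4. With each array centred on its median the memory count was 12. The members were chosen with earlier results of these data known, and the direction of the list in both subsets was among those results.

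Averaged over both subsets, 28 of 30 genes were higher in KO (55.5% of all genes), the median was 0.35 and 0 of 30 passed, against 0.194% of all genes. The fit took effector and memory arrays as independent samples, and the labels do not say whether they share mice. The unadjusted p was under 0.05 for 18 of 30, all higher (6.74% of all genes were so, and 7.19% lower). The lowest adjusted p-values were 0.0549 for Phf11b, 0.0673 for Usp18, 0.0694 for Cmpk2 and 0.0882 for Isg15. This count of 0 was sensitive to single arrays. It was 5 without effector KO 2 (Usp18, Isg15, Oasl2, Cmpk2 and Phf11b) and 5 without memory KO 3 (Usp18, Isg15, Oas2, Cmpk2 and Phf11b). It was 1 without effector KO 3 (Usp18), effector KO 4 (Usp18) or memory WT 4 (Phf11b), and 0 in the other 11 fits. In those 11 the smallest adjusted p of the list ran from 0.0543 (without effector WT 3) to 0.13 (without memory KO 4). In memory cells 1 gene passed without effector KO 4 (Usp18) or memory KO 3 (Oas2).

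**Figure D3:**
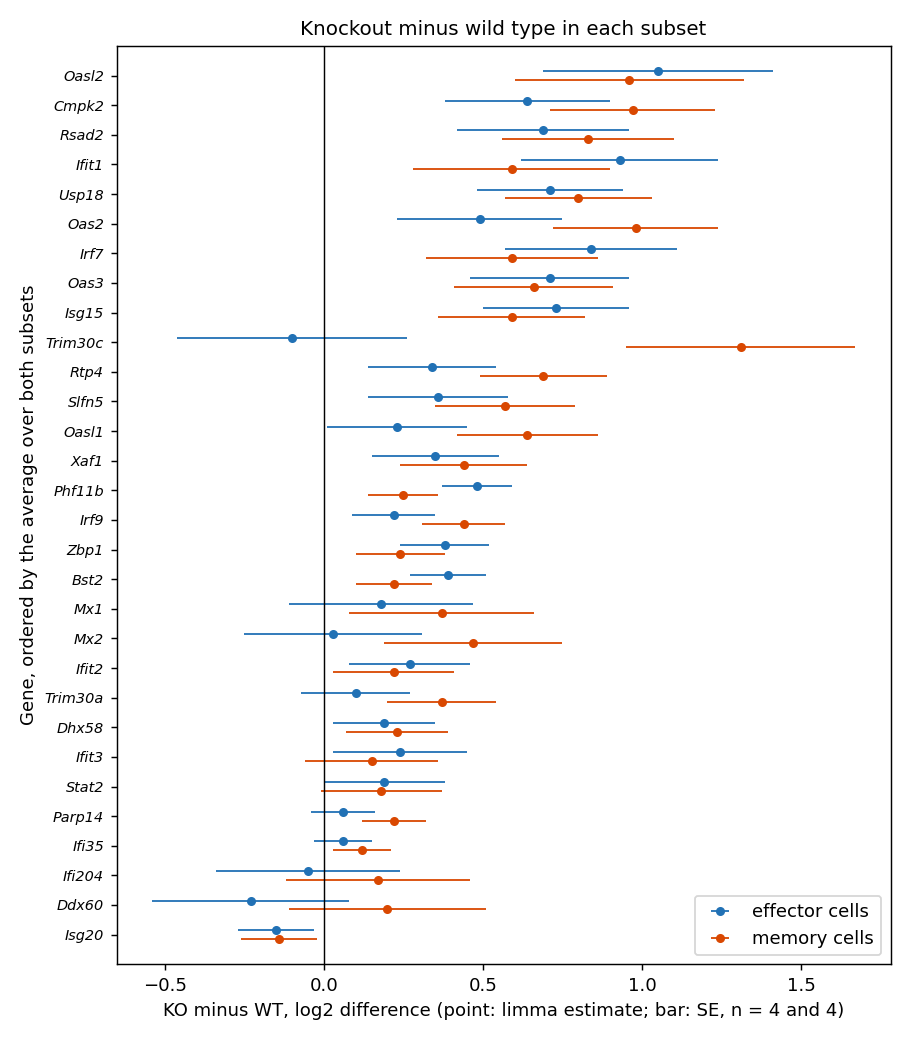
Points give the KO minus WT difference (log2, limma estimate) of the 30 genes in effector (blue) and memory cells (orange), with bars for the SE and genes ordered by the average over both subsets. Most points lie to the right of 0, Oasl2 is at the top with 1.05 and 0.96, Isg20 is at the bottom with -0.15 and -0.14, and no gene passed in either subset.

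Of the transcription factors, Irf7, which amplifies the response, read 8.82, 8.50, 8.56 and 9.64 in effector KO and 8.0, 7.62, 8.07 and 8.46 in effector WT. These groups did not overlap, and the exact permutation p of the difference in means was 0.0286, the smallest that 4 against 4 can give. By the limma fit the effector difference was 0.84 (SE 0.27, adjusted p = 0.442). Without effector KO 4 it was 0.59 (SE 0.24, adjusted p = 0.793). In memory cells Irf7 read 9.59, 8.87, 8.85 and 9.63 in KO and 8.78, 8.19, 8.52 and 9.10 in WT, where the groups overlapped (exact permutation p = 0.114). The memory difference by the fit was 0.59 (SE 0.27, adjusted p = 0.429). Irf9 read 8.88, 9.05, 8.86 and 9.17 in memory KO and 8.58, 8.42, 8.56 and 8.63 in memory WT, without overlap (0.44, SE 0.13, adjusted p = 0.223). In effector cells Irf9 read 8.20, 8.49, 8.60 and 8.91 in KO and 8.12, 8.29, 8.41 and 8.52 in WT, with overlap, and its difference of 0.22 (SE 0.13) was 0.10 (SE 0.12) without effector KO 4.

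Stat2 read 8.37, 8.05, 8.18 and 9.10 in effector KO and 8.26, 8.11, 8.42 and 8.16 in effector WT, with a difference of 0.19 (SE 0.19). The array effector KO 4 was the only KO array above the WT arrays, and without it the difference was -0.03 (SE 0.14). In memory cells it read 8.62, 8.15, 8.06 and 8.24 in KO and 8.24, 7.84, 8.04 and 8.24 in WT (0.18, SE 0.19). The 95% interval of the difference was -0.21 to 0.59 in effector cells.

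Usp18, with the values above, was higher in KO by 0.71 (SE 0.23, adjusted p = 0.455) in effector and 0.80 (SE 0.23, adjusted p = 0.216) in memory cells, and its KO and WT arrays did not overlap in either subset. Without effector KO 4, the highest array of its group, the effector difference was 0.41 (SE 0.16, adjusted p = 0.79). Isg15, a ubiquitin-like protein that is joined to other proteins and also secreted, read 9.41, 8.81, 8.83 and 9.43 in effector KO against 8.24, 7.87, 8.70 and 8.75 in effector WT. In memory cells it read 9.47, 8.92, 8.79 and 9.69 in KO against 8.50, 8.46, 8.77 and 8.77 in WT. The groups were apart in both subsets, though memory KO 3, at 8.79, lay just above the highest memory WT arrays at 8.77. The differences were 0.73 (SE 0.23, adjusted p = 0.442) and 0.59 (SE 0.23, adjusted p = 0.333).

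KO arrays lay above all WT arrays without overlap for 7 of 30 genes in effector cells (2.71% of all genes) and for 9 of 30 in memory cells (3.12%), and below them for 0 in each (1.94% and 3.37%). Usp18, Isg15 and Rsad2 did so in both subsets. That is 3 of 30, against 0.23% of all genes. Rsad2 differed by 0.69 (SE 0.27) in effector and 0.83 (SE 0.27) in memory cells.

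Phf11b had the smallest p of the list in effector cells and over both subsets. It read 10.49, 10.30, 10.33 and 10.23 in effector KO and 9.81, 9.71, 10.02 and 9.90 in effector WT, without overlap (0.48, SE 0.11, adjusted p = 0.242). In memory cells it read 10.13, 10.09, 10.12 and 10.34 in KO and 9.94, 9.70, 9.92 and 10.14 in WT, and the groups overlapped. Bst2, with the values above, differed by 0.39 (SE 0.12, adjusted p = 0.429) in effector cells without overlap, and by 0.22 (SE 0.12) in memory cells with overlap. Phf11b has close paralogs, and a share of its signal from them was not tested.

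Cmpk2 differed most clearly in memory cells, by 0.97 (SE 0.26, adjusted p = 0.176), where its lowest KO array (8.53) lay just above its highest WT array (8.47). Oas2 read 6.32, 5.33, 4.87 and 6.33 in memory KO and 4.77, 4.81, 4.52 and 4.83 in memory WT, just apart at memory KO 3 (0.98, SE 0.26, adjusted p = 0.185). In effector cells Oas2 read 4.84, 4.93, 4.38 and 5.10 in KO and 4.25, 4.67, 4.11 and 4.26 in WT, with overlap. Oasl1 read 6.47, 5.96, 6.17 and 7.02 in memory KO, 5.58, 5.45, 5.85 and 6.18 in memory WT, 5.71, 5.40, 5.87 and 5.75 in effector KO and 5.17, 5.10, 5.84 and 5.69 in effector WT, with overlap of KO and WT in both subsets.

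**Figure D4:**
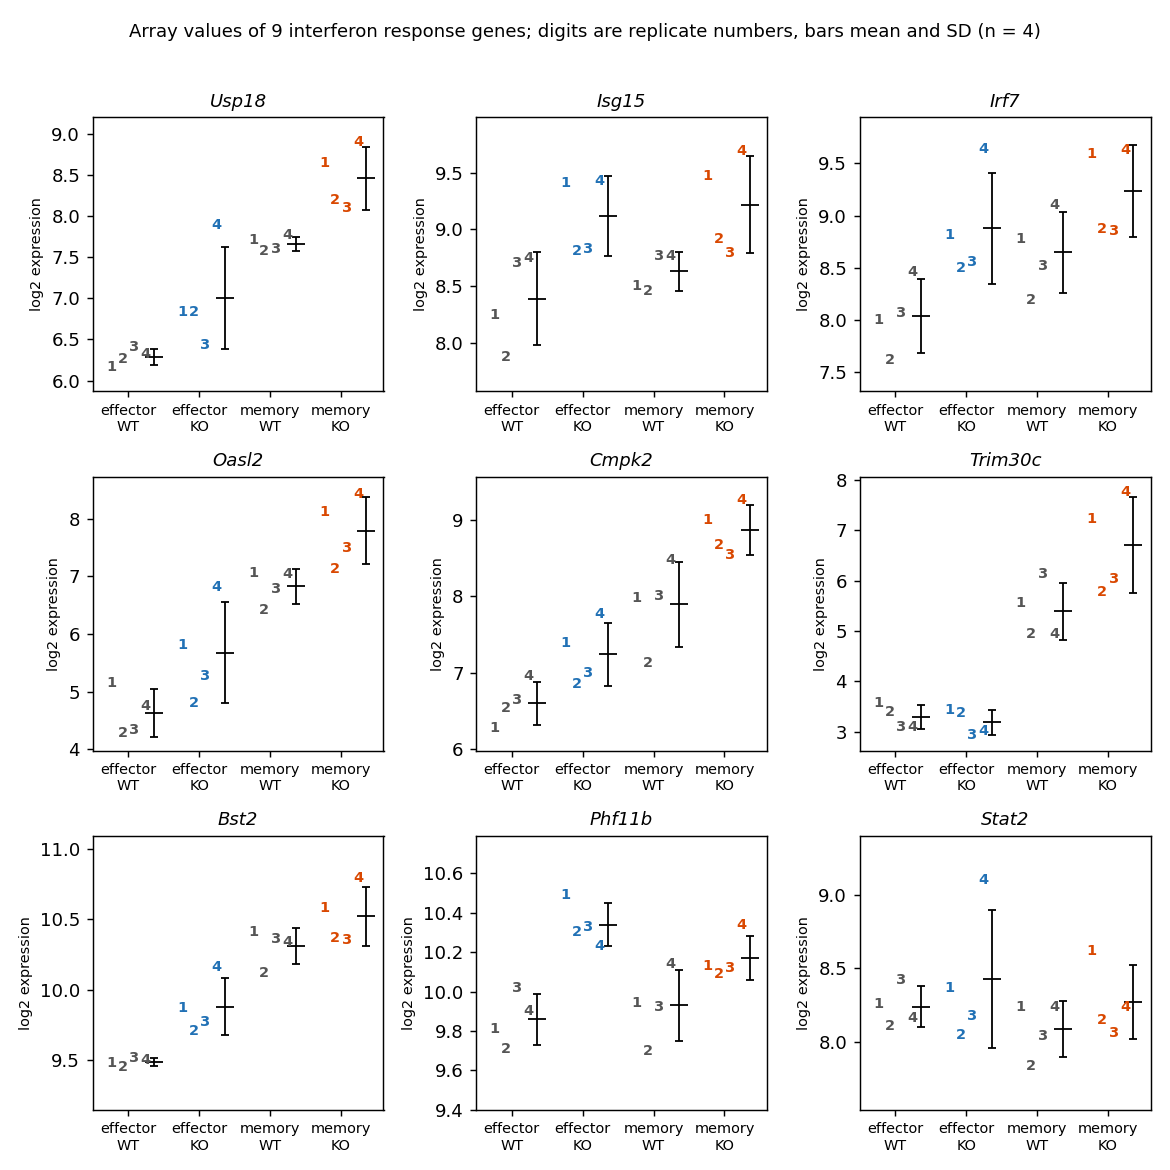
Each panel plots log2 expression of 1 gene on the 16 arrays by group, digits being replicate numbers and the bars the group mean and SD (n = 4). Usp18, Oasl2, Cmpk2, Trim30c and Bst2 are higher in memory than in effector cells, and effector KO 4 and memory KO 1 and 4 are the high arrays of their groups for Usp18 and Irf7.

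Other genes had small or uneven differences in the knockout comparison. Isg20 was the single gene lower in KO in both subsets, at -0.15 (SE 0.12) in effector and -0.14 (SE 0.12) in memory cells. Ifi35 stood at 0.06 and 0.12 (SE 0.09 each), Parp14 at 0.06 and 0.22 (SE 0.10 each), and Ifi204 at -0.05 and 0.17 (SE 0.29 each). Mx1 and Mx2, antiviral GTPases whose signals were dim, stood at 0.18 and 0.03 in effector and at 0.37 and 0.47 in memory cells, with SE of 0.28 to 0.29. Ddx60 stood at -0.23 (SE 0.31) in effector cells, where effector KO 4 read 4.43 and the other KO arrays 5.88 to 6.32, and at 0.18 (SE 0.20) without that array. Without effector KO 4 the effector difference of Oasl2 was 0.66 in place of 1.05, that of Ifit1 0.58 in place of 0.93, that of Rtp4 0.20 in place of 0.34 and that of Xaf1 0.18 in place of 0.35. That of Phf11b was 0.51 in place of 0.48. Irf7, Isg20, Trim30a and Trim30c lie on the chromosome that carries Il4i1. The 26 other genes had median differences of 0.34 in effector and 0.44 in memory cells, with 24 and 26 higher in KO.

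The sorting marker moved with these results. Il7r encodes CD127, by whose absence or high level the subsets were sorted. It read 6.6, 5.43, 5.0 and 5.75 in effector KO and 3.83, 3.85, 4.02 and 4.46 in effector WT, without overlap, and was higher in effector KO by 1.65 (SE 0.25, adjusted p = 0.0183). In memory cells it read 11.06, 11.07, 10.94 and 11.27 in KO and 10.84, 10.29, 10.73 and 10.96 in WT (0.38, SE 0.25, adjusted p = 0.617). Its level in effector KO stayed far below that of either memory group. The part of this difference in the knockout values of the type I genes in effector cells was not tested.

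The arrays of a group differed in the list as a whole. The mean of the 30 genes was 6.72 to 7.15 on the effector KO arrays and 6.43 to 6.67 on the effector WT arrays. It was 7.24 to 7.87 on the memory KO arrays and 6.82 to 7.35 on the memory WT arrays, where the groups overlapped. Within memory KO, arrays 1 and 4 stood at 7.79 and 7.87 and arrays 2 and 3 at 7.34 and 7.24, so that memory KO 3 lay below memory WT 4 (7.35). Memory KO 4 was the highest of its group for 21 of 30 genes and memory KO 3 the lowest for 21. Memory WT 4 was the highest of its group for 24 and memory WT 2 the lowest for 22. Effector KO 4 was the highest of its group for 18 and the lowest for 4, among them Ddx60 and Ifit2.

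The order of the replicate numbers by this mean was the same in both subsets of a genotype. It ran 4, 1, 2, 3 in effector KO and in memory KO, and 4, 3, 1, 2 in effector WT and in memory WT. Some steps were small, such as 6.73 and 6.72 on effector KO 2 and 3, and 6.44 and 6.43 on effector WT 1 and 2. The labels do not say that equal numbers mark the same mouse.

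Most of the genes varied together across the arrays of a group. With group means removed, the correlation of a gene with the mean of the other 29 over 16 arrays had a median of 0.69 and was 0.50 or more for 24 of 30 genes. Xaf1 (0.91), Irf7 (0.90) and Cmpk2 (0.88) followed the list most closely, while Ddx60 (0.00) and Isg20 (-0.31) did not follow it. Among the 22150 other genes, 8.21% had a correlation of 0.50 or more with the mean of the 30. These points share their array and its amplification, and the values are a description.

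Further parts of the pathway were read from a list of 46 measured genes. The ligand genes were mostly dim. Of 16 measured interferon alpha, beta, epsilon and kappa genes, 10 lay above the array median on no array. Ifnb1 lay above it on 0 of 16 arrays. Means in memory KO and memory WT lay above the array medians for Ifna1 (6.77 and 6.54) and Ifna4 (7.07 and 6.89). How far the probe sets of the interferon alpha genes read their paralogs was not tested. The receptor chain gene Ifnar2 was the single gene of the 46 to pass in a knockout comparison. It read 9.10, 8.76, 8.71 and 9.46 in effector KO, 8.24, 8.30, 8.44 and 8.33 in effector WT, 9.73, 9.70, 9.72 and 9.90 in memory KO and 9.24, 9.05, 9.52 and 9.41 in memory WT. KO and WT did not overlap in either subset. Over both subsets Ifnar2 rose by 0.57 (SE 0.10, adjusted p = 0.0289) in KO, a 1.48-fold change. This call was lost in 8 of the 16 fits that left out 1 array, with a highest adjusted p of 0.0786 (without effector KO 1, effector WT 1, 2 or 4, memory KO 1 or 4, or memory WT 1 or 2), and the difference stayed between 0.49 and 0.62 in these fits. The SE over both subsets may be too small if effector and memory arrays share mice, which the labels do not say.

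Ifnar2 shared the subset pattern too, and was lower in effector cells by 0.98 (SE 0.14, adjusted p = 0.00106) in WT and by 0.75 (SE 0.14, adjusted p = 0.0043) in KO. Ifnar1, the other receptor chain, was at 0.08 (SE 0.07) for the knockout and 0.01 (SE 0.07) for the subset difference, over both. Socs1, an inhibitor of the JAK kinases, was lower in effector cells by 0.84 (SE 0.08, adjusted p = 5.7e-06) over both genotypes, and stood at 0.23 (SE 0.08, adjusted p = 0.221) for the knockout over both subsets. Irf1 stood at 0.17 (SE 0.09) for the knockout and 0.29 (SE 0.09, adjusted p = 0.0594) for the subset difference. Over both genotypes 13 of the 46 pathway genes passed, 7 higher and 6 lower in effector cells, against 5.05% and 7.11% of all genes.

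A second list held 82 measured interferon response genes outside the 30, many of which interferon gamma also induces. By the limma fit 0 passed in KO against WT in effector cells, in memory cells and over both subsets. At an unadjusted p under 0.05, 13, 21 and 27 were higher (5%, 5.19% and 6.74% of all genes) and 1, 4 and 4 lower (4.32%, 6.08% and 7.19%), with medians of 0.09, 0.20 and 0.14. By sign alone 53, 60 and 63 of the 82 were higher in KO. Between subsets 29 of 82 passed as lower and 4 as higher in effector cells over both genotypes, against 7.11% and 5.05% of all genes. Ms4a4c, of the MS4A family, was at -1.99 (SE 0.12, adjusted p = 4.6e-08) and the antiviral membrane gene Ifitm2 at -2.24 (SE 0.20, adjusted p = 2.12e-06). A list on interferon gamma had knockout medians of 0.04 in effector and -0.02 in memory cells over 20 measured genes. It held Ifng and its receptor genes Ifngr1 and Ifngr2 beside induced genes, and its members went both ways in memory cells. Irgm2 (0.58), Iigp1 (0.60) and Gbp4 (0.50) were higher in memory KO. H2-Aa (-0.44), H2-Ab1 (-0.55) and H2-Eb1 (-0.66) were lower, and none of these passed. B and leukaemia cell markers were mostly lower in memory KO too, as given below. The part of such cells in the H2 values was not tested. Ifng fell by 1.34 (SE 0.24, adjusted p = 0.0404) in memory KO. Of the 30 type I genes, 29 had a positive difference there. The part of interferon gamma in these values was not tested.

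Markers of other cells moved with some of these results. The counts in this paragraph are of genes that passed over both genotypes, unless a genotype is named. Of all genes, 7.11% passed as lower and 5.05% as higher in effector cells. B and leukaemia cell markers passed as lower in effector cells in 13 of 16 over both genotypes. Within WT they did so in 13 of 16 (2.3% of all genes) and within KO in 3 of 16 (4.3%). Their mean on an array was 4.08 to 4.23 in effector WT, 4.13 to 4.54 in effector KO, 5.13 to 5.94 in memory WT and 4.68 to 5.26 in memory KO. Myeloid markers were lower in effector cells in 10 of 25 and higher in 1, with array means of 4.69 to 4.90 in effector and 4.86 to 5.48 in memory cells. NK cell markers were lower in 4 of 9 and higher in 1, and their array means were 5.78 to 6.13 in effector and 6.32 to 6.58 in memory cells. Plasmacytoid dendritic cells make much of the body's type I interferon, and their markers were lower in 2 of 11 and higher in 1. Of the CD4 and regulatory T cell markers 1 of 8 was lower and 1 higher. The part of these cells in the subset difference of the type I genes was not tested.

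In the knockout comparison of memory cells the B and leukaemia markers ran the other way from the type I genes. By sign alone 14 of 16 were lower in KO, where 54.8% of all genes were higher, and Cd22 passed (0.113% of all genes did). Within memory KO their mean was highest on array 3 (5.26), which had the lowest type I mean, and within memory WT it was highest on array 1 (5.94) and lowest on array 4 (5.13), which had the highest type I mean. In effector KO it was highest on array 4 (4.54), which also had the highest type I mean. In KO against WT 0 of 11 plasmacytoid and 0 of 25 myeloid markers passed by the limma fit in either subset. At an unadjusted p under 0.05 in memory cells, 2 plasmacytoid markers were higher and 3 lower, and 1 myeloid marker was higher and 2 lower. Of the B and leukaemia markers 4 lay above the array median on all 16 arrays and 3 on none.

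**Figure D5:**
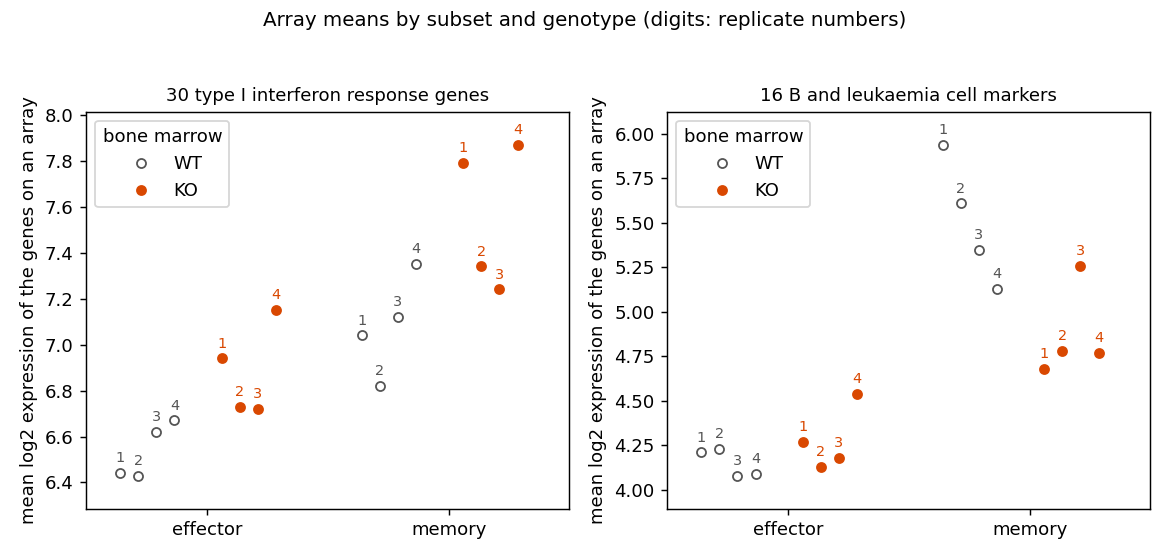
Each point is the mean log2 expression on 1 array of the 30 type I interferon response genes (left) or of 16 B and leukaemia cell markers (right), for effector and memory cells, open points WT and filled points KO, with replicate numbers above. The type I mean runs from 6.43 to 7.15 in effector and 6.82 to 7.87 in memory cells, and the marker mean is highest on memory WT 1 (5.94).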

How the data were processed

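The authors deposited 1 value for each of 41345 probe sets on each of 16 one-colour Affymetrix arrays. Per the labels' protocols, an RNeasy Micro Kit gave the RNA, of which 1 ng went into the GeneChip WT Pico kit. The deposited values run from 0.7365 to 14.0453 and were read as log2 expression, a base inferred from that range. How the authors summarised and normalized them is not stated in the sources used here.

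GEO's probe annotation gave 23521 probe sets exactly 1 gene symbol and 1814 several, which were left out. This left 22180 genes. No filter on dim genes was applied. With limma 3.58.1 (R 4.3.3), group means were fitted over all 16 arrays (12 residual degrees of freedom, prior 4.23), with 7 contrasts and Benjamini-Hochberg adjustment over all genes. The pipeline was tested on simulated data. For single genes, 4 arrays were also set against 4 by exact permutation, two-sided. Arrays have no read depth, and their number limits the precision. Intervals are 95% intervals of the fit.

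The members and gene lists were chosen with earlier results of these data known, so counts and medians of a list are descriptions. Genes described on every array were the 5 signalling and feedback genes and the 4 with the smallest p in each contrast, and other members are given by value. From the other lists, genes past the threshold in a knockout comparison, Ifnar1, Ifnar2, Irf1, Socs1 and the 2 of a list with the smallest p could be named. Ifnb1, Ifna1, Ifna4, the genes named beside Ifng from the interferon gamma list, and the T cell markers, Il7r excepted, were named without regard to this rule. Sequences are from the RefSeq promoter table of GRCm38.p6. The alternatives were other scaling, a filter on dim genes, fits of 8 arrays, replicate blocks, another variance prior, array weights, the mean of a gene's probe sets and leaving out each array.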

Additional observations from a re-analysis of the deposited data

Results flagged for a closer look

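Within groups of 4 arrays, 2 values stood far from the other 3 by Dixon's criterion, out of 124 sets of 4 values examined (30 genes and their mean in 4 groups). Chance alone picks out about 5% of such sets. Rsad2 read 6.38 on effector KO 4, against 5.87 to 5.94 on the remaining effector KO arrays. Phf11b read 10.34 on memory KO 4, and the other memory KO arrays lay between 10.09 and 10.13.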

How the results depend on the processing

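The number of the 30 genes that passed in KO against WT over both subsets was 0 as reported. It was 1 among genes above the array median on at least 4 arrays, 1 with a trended and robust variance prior, 2 with array weights, and 0 to 5 over the fits without 1 array. In memory cells that range was 0 to 1, in effector cells and for the interaction it was 0 to 0. The counts for effector against memory ran from 7 to 9 in WT, 8 to 12 in KO and 11 to 16 over both genotypes. Over both genotypes Isg20 passed as higher in effector cells without effector KO 1 or memory WT 4. So it did with array weights and among genes above the array median on at least 4 arrays. Quantile normalization, median centring and the mean of probe sets left the knockout counts at 0. No called gene changed sign under any alternative. The same numbers 1 to 4 occur in each group. Between effector and memory arrays of the same number, deviations from the group means over all genes correlated at 0.018, 0.116, 0.147 and 0.143 in KO and at 0.087, 0.239, 0.138 and 0.126 in WT, so not every pair passed 0.1 and the numbers were not taken as pairs. In WT each array correlated best with its own number, and in KO effector KO 1 and memory KO 1 did not, which is a hint from the data and not from the design. With the number as a replicate block, 1 gene passed in effector cells (Irf7), 1 in memory cells (Cmpk2) and 13 over both subsets, all higher in KO, against 0.131%, 0.469% and 1.75% of all genes. The block raised the count over all genes in the last of these from 43 to 389. It also ties KO to WT arrays of the same number, which came from mice with different bone marrow and so are not same-mouse pairs. Between KO and WT arrays of the same number the correlations were 0.043, 0.138, -0.032 and 0.016 in effector cells. In memory cells they were 0.016, 0.119, 0.041 and 0.084. With genotype and number together as the replicate block, 11, 14 and 16 genes passed in effector against memory in WT, in KO and over both. Depth is not recorded for arrays, and signals under the array median limit Mx1, Mx2, Ifi204, Trim30c and Slfn5.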

Other observations

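The probe set shared by Oas1a and Oas1g, left out above because it belongs to no gene alone, had means of 5.80 in effector KO (SD 0.41, n = 4), 5.67 in effector WT (SD 0.28, n = 4), 6.27 in memory KO (SD 0.40, n = 4) and 6.04 in memory WT (SD 0.24, n = 4). Its highest value, 6.74, was on memory KO 4. The probe set shared by Ifi27l2a and Ifi27l2b had means of 6.35, 6.17, 6.15 and 6.15 in the same order, with SDs of 0.17, 0.16, 0.19 and 0.16 (n = 4 each).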
